A study of Mus musculus with 11 samples.

Results

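The genes described here are 10 members of the interleukin 6 (IL-6) pathway: the ligand genes Il6 and Lif, the receptor genes Il6ra, Il6st, Osmr and Lifr, the transcription factor gene Stat3, and 3 genes that STAT3 is known to switch on, Socs3, Hp and Lbp. They were taken by gene symbol from an array table of sorted mouse liver cells. All 10 were found, each with 1 feature, among 23185 named genes, and no filter on low values was applied. The study traced cells carrying a yellow fluorescent protein (YFP) to learn what the biliary epithelium, the lining of the bile ducts, gives rise to when the liver is injured.

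The 4 groups were sorted from dissociated livers: YFP+ cells of mice on the DDC diet for 5 weeks (3 arrays), YFP+ cells of mice treated with CDE (3 arrays), YFP+ cells of untreated mice (UTR, 2 arrays) and YFP- cells (3 arrays). The titles of the YFP- samples name no treatment, so UTR and YFP- may differ in more than YFP. DDC and CDE are diets that injure the liver and provoke growth of bile duct-like cells, DDC around blocked ducts and CDE with fat-laden, damaged hepatocytes. The DDC protocol names 4 mice. Strain, age, the length of CDE treatment, the allele that carries YFP and the promoter that switches it on were not stated in the labels, nor was it stated whether arrays of 1 group came from separate animals. The p-values therefore measure only the spread between these arrays. All cells passed a sort for live cells from the non-parenchymal fraction, and the gate for YFP was set on wild type mice.

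IL-6 family cytokines act through a shared receptor chain, gp130, the product of Il6st. IL-6 reaches it with the IL-6 receptor (Il6ra), LIF with the LIF receptor (Lifr), and oncostatin M with the oncostatin M receptor (Osmr). The receptors activate JAK kinases, which phosphorylate STAT3. STAT3 then enters the nucleus and raises its own brake, SOCS3. In hepatocytes the same route drives the acute phase response, in which plasma proteins such as haptoglobin (Hp) and lipopolysaccharide binding protein (Lbp) are made in larger amounts.

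STAT factors bind DNA near TTCNNNGAA, and the reference promoters were read for that motif to show where the letters occur. Of the 10 members 8 had an entry in the RefSeq promoter table (GRCm38.p6, 250 bases before to 50 after the start site), with 2 starts for Lifr, while Hp and Lbp had none. Socs3 was the 1 member of these 8 with a match, on chromosome 11, minus strand, at chr11:117969502-117969530. The motif reads the same on either strand, and 8.3% of 32851 promoters of this length held it. The promoter of Il6, on chromosome 5, plus strand, held letters of a C/EBP core (TTGCNNAA, either strand, in 10.8% of promoters) at chr5:30012976-30013003. It also held letters of a loose NF-kB pattern, GGG and CC set 5 bases apart (either strand, in 50.8% of promoters, so often met), at chr5:30013060-30013089, where another match overlaps it by all but 1 base. These 3 stretches are shown because they hold the motif letters found in the feedback gene and in the ligand that names the family, with the matched letters in capitals and the rest in lower case.
Socs3 STAT motif: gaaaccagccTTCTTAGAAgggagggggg
Il6 C/EBP core: cgacgtcacaTTGTGCAAtcttaataag
Il6 NF-kB pattern: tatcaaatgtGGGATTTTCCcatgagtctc
A match marks letters only, and none of the arrays measured binding.

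Values are log2 expression as the authors deposited it, with 1 unit taken as a 2-fold difference, and a feature is called dim where it lies under the lower quartile of all features on its array (4.28 to 4.38). The YFP+ arrays resembled each other, with correlations across genes of 0.98 to 0.991. The YFP- arrays varied more (0.888 to 0.925), with a median SD of a gene of 0.261 against 0.105 to 0.152 in the YFP+ groups. The 9 measured biliary markers averaged 10.17 to 10.50 on every YFP+ array, and 8.10, 5.08 and 4.85 on YFP- replicates 1, 2 and 3. YFP- replicate 1 thus carried bile duct transcripts at a higher level than the other YFP- arrays, for a reason that was not tested. Differences are from limma, with SE, and passed where the Benjamini-Hochberg adjusted p over all 23185 genes was under 0.05. Comparisons among YFP+ groups were fitted on the 8 YFP+ arrays, and those with YFP- on all 11.

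**Figure D1:**
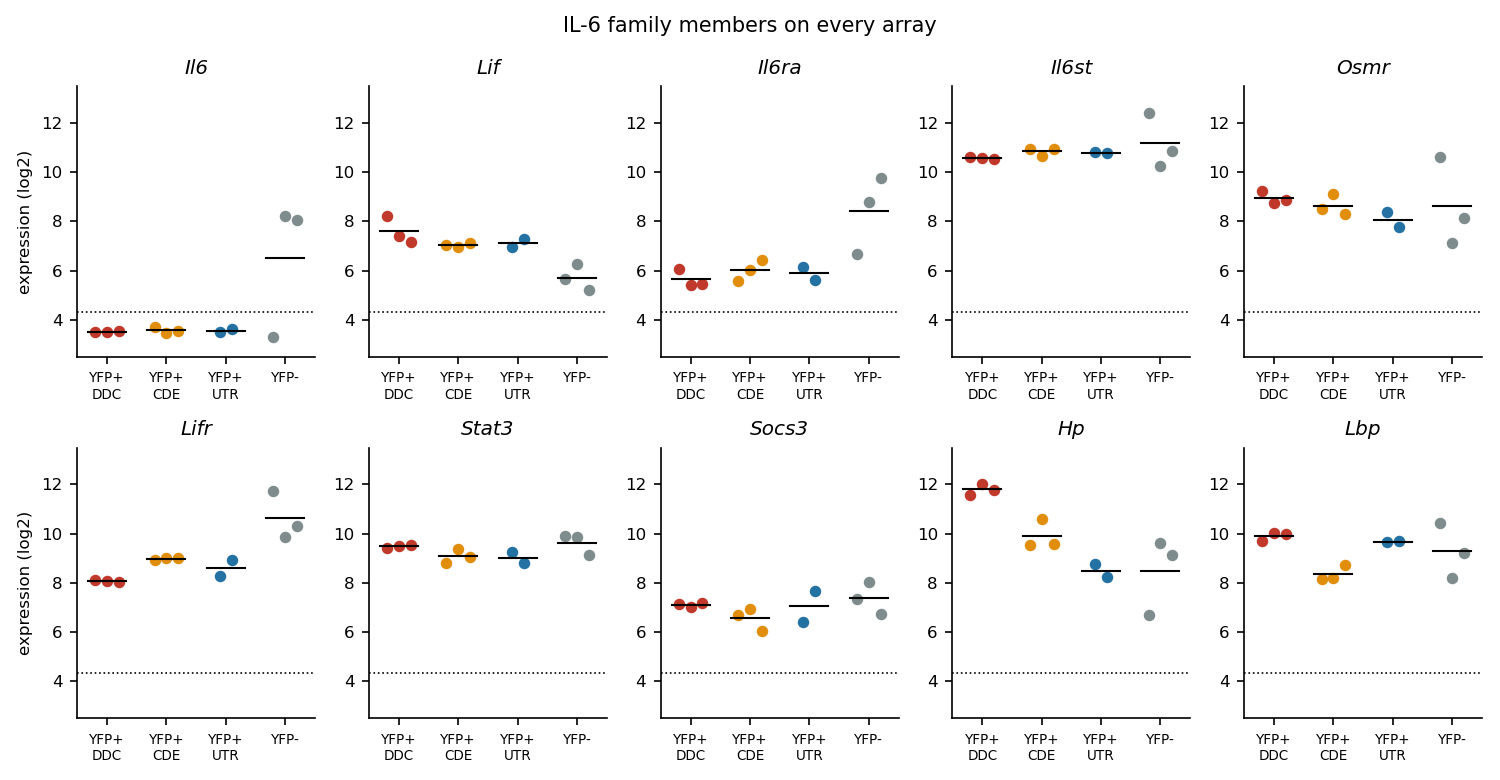
Expression (log2) of the 10 genes on each array, with 1 point per array and a bar at the group mean; the dotted line marks the average lower quartile of the arrays. Hp stands highest on the DDC arrays (11.59 to 12.03), Lbp lowest among YFP+ groups on the CDE arrays (8.15 to 8.72), and Il6 lies under the line on all 8 YFP+ arrays.

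DDC against no treatment showed a large rise of 1 output gene, the only member that passed. Haptoglobin rose by 3.30 ± 0.31, or 9.86-fold. The other 9 members did not pass, including Socs3, the direct feedback readout of STAT3. Among 10 members 1 was called higher and 0 lower, while 0.16% of all genes were called (37 of 23185), 0.0949% higher and 0.0647% lower. The median difference of the members was 0.15, beside 0.01 over all genes.

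Hp, which encodes the plasma scavenger of free haemoglobin, read 11.59, 12.03 and 11.77 on the DDC arrays, against 8.75 and 8.24 on the UTR arrays. The lowest DDC array lay above the highest UTR array by far more than either group's spread (means 11.80 ± 0.22, SD, n = 3, and 8.49 ± 0.37, SD, n = 2). The adjusted p was 0.0209 with limma in the 8 arrays. The call was lost when the YFP- arrays, with their wide spread, entered the fit (0.556), and without DDC replicate 1, 2 or 3 (0.0575, 0.0928 and 0.075) or UTR replicate 2 (0.131). The difference itself stayed between 3.04 and 3.56 over all 8 omissions.

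The ligand genes differed in kind. Il6 was dim on every YFP+ array, at 3.50, 3.53 and 3.55 with DDC, 3.71, 3.45 and 3.54 with CDE, and 3.52 and 3.61 in UTR. No group of YFP+ cells gave a signal of this gene above the floor of the array. Lif, whose product acts through Lifr and gp130, was measured well above the floor, at 8.20, 7.42 and 7.16 with DDC against 6.97 and 7.28 in UTR. The DDC and UTR arrays overlapped and the difference of 0.47 ± 0.27 did not pass (adjusted p = 0.6, limma). DDC replicate 1 alone was high, and without it the difference was 0.17.

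Among the receptors on DDC, Osmr and Lifr leaned opposite ways without passing. Osmr read 9.25, 8.76 and 8.85 on the DDC arrays against 8.37 and 7.76 on the UTR arrays, a difference of 0.89 ± 0.28 (adjusted p = 0.312, limma). The groups did not overlap. Lifr read 8.12, 8.06 and 8.06 with DDC against 8.26 and 8.92 in UTR, a difference of -0.51 ± 0.17 (adjusted p = 0.352). The 2 UTR arrays of Lifr lay 0.66 apart, and without UTR replicate 1 the difference was -0.84 and passed (adjusted p = 0.048).

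gp130 was evenly measured. Il6st read 10.61, 10.56 and 10.53 with DDC and 10.82 and 10.76 in UTR, a difference of -0.23 ± 0.12 (adjusted p = 0.549, limma). Its 95% interval runs from -0.49 to 0.04. Il6ra, the specific chain for IL-6, read 6.06, 5.40 and 5.48 with DDC and 6.14 and 5.64 in UTR, with overlap and a difference of -0.24 ± 0.29.

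Stat3 read 9.42, 9.51 and 9.55 on the DDC arrays against 9.25 and 8.80 on the UTR arrays. All DDC arrays lay above both UTR arrays, yet the difference of 0.47 ± 0.19 did not pass (adjusted p = 0.44, limma). Socs3 read 7.14, 7.02 and 7.17 with DDC, a tight group, against 6.41 and 7.68 in UTR, which straddled it. Its difference of 0.07 ± 0.36 has a 95% interval of -0.77 to 0.90, which the spread of the UTR arrays makes wide.

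Lbp, whose product hands bacterial lipopolysaccharide to CD14, read 9.72, 10.03 and 9.99 with DDC against 9.67 and 9.69 in UTR. Its difference of 0.23 ± 0.18 did not pass (adjusted p = 0.713, limma), although the groups did not overlap. In all, 4 members did not overlap upward (Osmr, Stat3, Hp and Lbp) and 2 downward (Il6st and Lifr). The same held for 12.7% and 11.8% of all genes.

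**Figure D2:**
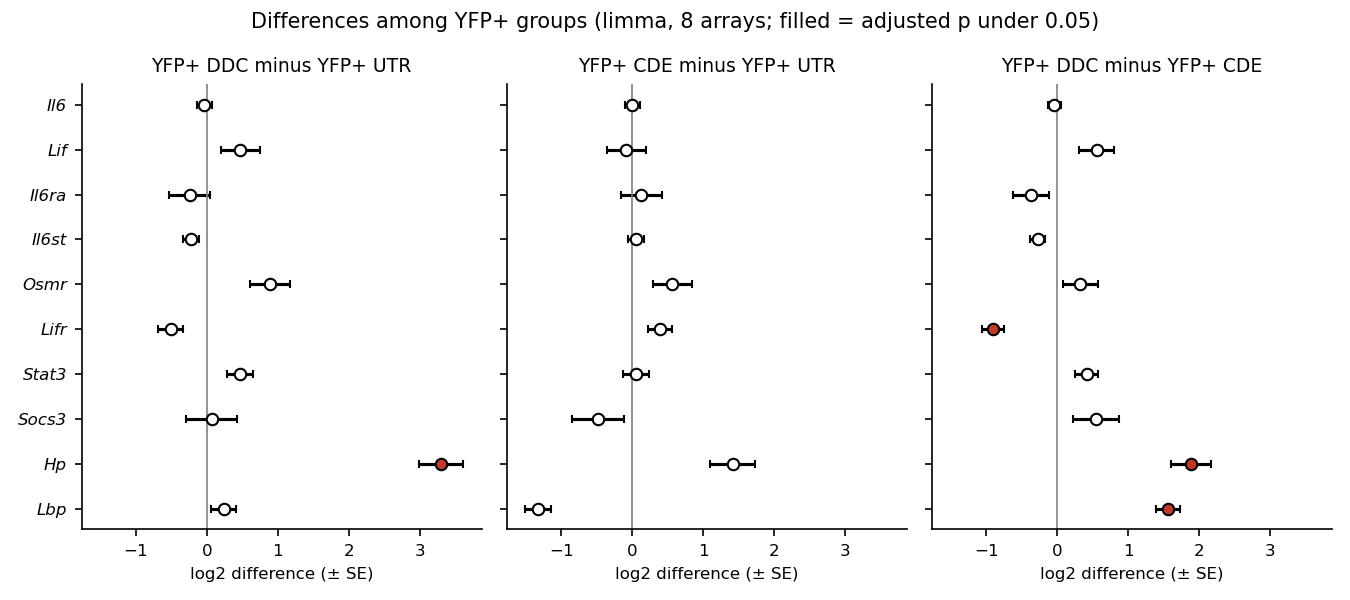
Log2 differences (x axis, ± SE of the limma fit on 8 arrays) of the 10 genes (y axis) for DDC minus UTR, CDE minus UTR and DDC minus CDE; filled points passed an adjusted p of 0.05. Hp is the filled point in the first panel at 3.30, no point is filled in the second, and Lifr (-0.90), Hp (1.88) and Lbp (1.56) are filled in the third.

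In CDE against no treatment no member passed. Among the outputs the CDE arrays of Hp all lay above the UTR arrays, those of Lbp all below, and those of Socs3 overlapped them. No gene of the table passed in this comparison with limma (0 of 23185, 0%, with 1492 at an unadjusted p under 0.05), so 0 of 10 members is the background. CDE and DDC were set against the same UTR arrays, and the values of each comparison are given side by side.

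Hp read 9.56, 10.58 and 9.60 on the CDE arrays against 8.75 and 8.24 on the UTR arrays, a difference of 1.42 ± 0.31 (adjusted p = 0.51, limma) where DDC gave 3.30. All CDE arrays lay above both UTR arrays. CDE replicate 2 was the highest, and without it the difference was 1.08. That array also had the highest level of 13 hepatocyte markers among the YFP+ arrays, a mean of 7.89 against 7.05 and 7.12 on CDE replicates 1 and 3. The part of hepatocyte RNA in the CDE value was not tested.

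Lbp read 8.15, 8.20 and 8.72 on the CDE arrays against 9.67 and 9.69 on the UTR arrays, a difference of -1.33 ± 0.18 (adjusted p = 0.18; unadjusted p = 7.75e-05, limma). Every CDE array lay below both UTR arrays. CDE replicate 2, the array rich in hepatocyte markers, was low in Lbp with the others. Socs3 read 6.71, 6.93 and 6.05 with CDE against 6.41 and 7.68 in UTR, with overlap and a difference of -0.48 ± 0.36 (adjusted p = 0.911).

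The receptors lay at or slightly above untreated levels on CDE. Osmr read 8.49, 9.12 and 8.29 with CDE against 8.37 and 7.76 in UTR (0.57 ± 0.28, adjusted p = 0.811, limma). Lifr read 8.92, 9.01 and 9.03 with CDE against 8.26 and 8.92 in UTR (0.39 ± 0.17, adjusted p = 0.783). UTR replicate 2 of Lifr was at the CDE level, and without UTR replicate 2 the CDE difference was 0.72, while without UTR replicate 1 it was 0.065.

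The other members differed little between CDE and UTR. Il6st differed by 0.05 ± 0.12 (95% interval -0.21 to 0.32) and Il6ra by 0.13 ± 0.28, and Stat3, at 8.81, 9.38 and 9.05 with CDE against 9.25 and 8.80 in UTR, by 0.06 ± 0.19. Lif read 7.03, 6.96 and 7.14 with CDE against 6.97 and 7.28 in UTR, a difference of -0.08 ± 0.27. The arrays of these genes overlapped. Of the 10 members Hp alone lay higher without overlap and Lbp alone lower, where 11.5% and 10.5% of all genes did so.

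Setting DDC directly against CDE gave 3 calls among the members. Hp and Lbp, both acute phase outputs, were higher with DDC, and Lifr, a receptor, was lower. Of 10 members 2 were called higher and 1 lower, where 1.16% of all genes were called (269 of 23185), 0.418% higher and 0.742% lower. The median difference of the members was 0.37, beside 0.01 over all genes. This is also the test of whether the diets differ in their signed change from untreated cells. It does not compare the sizes of those changes, which for Lifr were -0.51 with DDC and 0.39 with CDE.

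Lbp averaged 9.91 ± 0.17 with DDC and 8.35 ± 0.32 with CDE (SD, n = 3 each), a difference of 1.56 ± 0.16, or 2.95-fold (adjusted p = 0.0119, limma). Hp averaged 11.80 ± 0.22 with DDC and 9.91 ± 0.58 with CDE (SD, n = 3 each), a difference of 1.88 ± 0.28, or 3.69-fold (adjusted p = 0.028). The arrays of the diets did not overlap for either gene. Set beside the 2 UTR arrays, Lbp lay near them with DDC and below them with CDE, while Hp lay above them with either diet. Neither CDE difference from UTR passed (adjusted p = 0.18 for Lbp and 0.51 for Hp, limma).

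Lifr averaged 8.08 ± 0.04 with DDC and 8.99 ± 0.06 with CDE (SD, n = 3 each), a difference of -0.90 ± 0.16 (adjusted p = 0.0403, limma). Each diet group was tight, and the gap exceeded the spread of either many times over. With quantile normalization the difference was -0.83 (adjusted p = 0.0636), and the call was also lost without any 1 of the DDC or CDE arrays (0.0879 to 0.148). The Hp call was lost without CDE replicate 1 or 3 (0.111 and 0.107) or DDC replicate 1, 2 or 3 (0.0609, 0.0889 and 0.0795), and the Lbp call without CDE replicate 1 (0.0506). In the fit of all 11 arrays none of the 3 passed (0.376 to 0.65).

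The remaining 7 members did not pass between the diets. Stat3 (9.42 to 9.55 with DDC, 8.81 to 9.38 with CDE), Socs3 (7.02 to 7.17 with DDC, 6.05 to 6.93 with CDE) and Lif (7.16 to 8.20 with DDC, 6.96 to 7.14 with CDE) did not overlap and lay higher with DDC. Their differences were 0.41 ± 0.17, 0.55 ± 0.33 and 0.55 ± 0.24 (adjusted p = 0.295, 0.473 and 0.331, limma). Il6st lay lower with DDC without overlap (-0.28 ± 0.10, adjusted p = 0.256). With Hp, Lbp and Lifr this made 5 members without overlap upward and 2 downward, where 9.64% and 10.6% of all genes behaved so.

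Hepatocyte markers are given beside Hp, which hepatocytes make in bulk. The 13 hepatocyte markers averaged 6.76 to 6.83 on the DDC arrays, 7.05 to 7.89 on the CDE arrays and 6.81 and 7.13 on the UTR arrays, and 0 of 13 were called higher with DDC against either group (limma). The part of hepatocyte RNA in the Hp values was not tested. Albumin, Alb, was lower with DDC than with CDE by -0.73 ± 0.09 (adjusted p = 0.0162). Neutrophil markers, which matter because neutrophils carry haptoglobin, averaged 4.54 to 5.18 on the DDC arrays, 4.57 to 5.31 on the CDE arrays and 4.66 and 4.71 on the UTR arrays. Of 9 such markers 0 were called in any comparison among YFP+ groups, and 3 to 5 of them were dim on each YFP+ array. Macrophage markers averaged 5.47 to 5.68 with DDC, 5.67 to 6.47 with CDE and 6.07 and 6.09 in UTR. Fewer cells of a type and less RNA per cell cannot be told apart in such sorted pools.

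**Figure D3:**
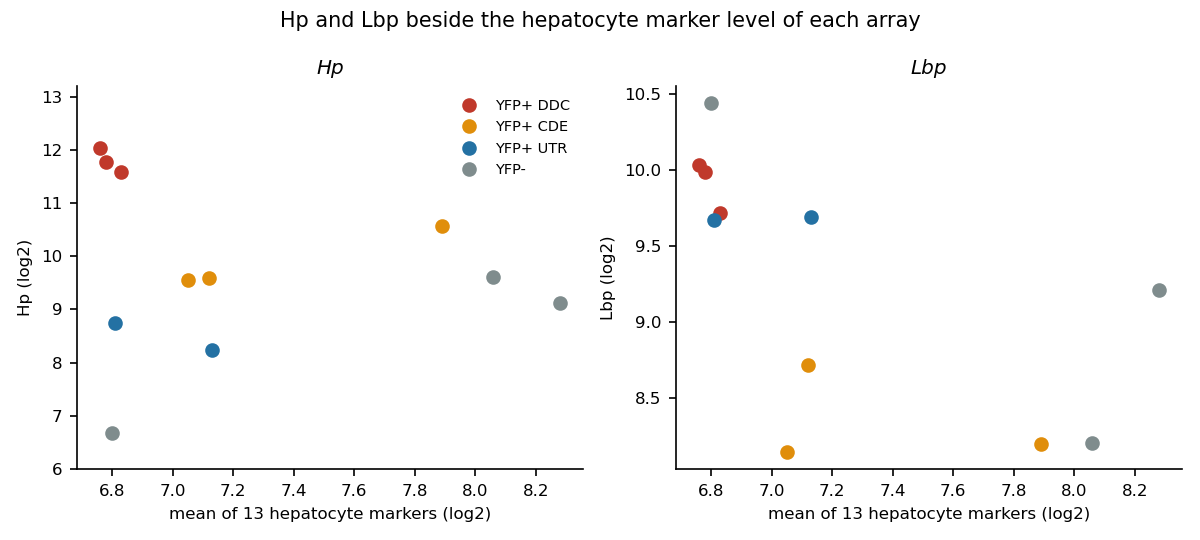
Hp (left) and Lbp (right) expression (log2, y axes) against the mean of 13 hepatocyte markers (log2, x axes), 1 point per array, coloured by group. The 3 DDC arrays combine the highest Hp with marker means of 6.76 to 6.83, and CDE replicate 2 stands apart from the other CDE arrays at 7.89.

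Of 26 measured genes of the acute phase list, 1 was called higher on DDC against UTR (Hp) and 0 lower, with a median of 0.23 beside 0.01 over all genes. Over all genes 0.0949% were called higher and 0.0647% lower. The serum amyloid genes Saa1, Saa2 and Saa3, prominent in the hepatocyte response, lay near the floor on the YFP+ arrays. Saa1 read 3.79 to 4.13 with DDC and 4.06 on each UTR array. Without overlap 11 of 26 lay higher and 3 lower, where 12.7% and 11.8% of all genes did so. Among these, chosen after their values were seen, haemopexin (Hpx), the haem carrier, read 8.50 to 8.71 with DDC against 6.73 and 6.44 in UTR (2.05 ± 0.53, adjusted p = 0.219, limma). The fibrinogen chain Fgb read 9.73 to 10.81 with DDC against 7.08 and 7.26 in UTR (3.07 ± 0.96, adjusted p = 0.312), and Lrg1 9.48 to 9.98 with DDC against 7.93 and 8.64 in UTR (1.49 ± 0.66, adjusted p = 0.49). The pentraxin genes Crp and Apcs, also chosen after their values were seen, lay lower without overlap, with differences of -0.34 ± 0.15 and -0.998 ± 0.35 that did not pass.

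For CDE against UTR 0 of 26 acute phase genes were called, with a median of 0.19 and 21 positive. The hormone hepcidin, Hamp, itself an IL-6 and BMP target, had the largest difference (5.73 ± 0.90, adjusted p = 0.264, limma), followed by Fgb (1.69 ± 0.96), which read 11.22 on CDE replicate 2 and 7.72 and 7.62 on the other CDE arrays. Between the diets 2 were higher with DDC (Hp and Lbp) and 1 lower, where 0.418% and 0.742% of all genes were called so. The lower gene, Hamp, read 3.82, 5.33 and 6.48 with DDC against 10.21, 12.52 and 9.93 with CDE (-5.68 ± 0.81, adjusted p = 0.0247, limma). Hamp was dim on DDC replicate 1, so the size of this difference is not fully set by the data. Hamp thus ran opposite to Hp and Lbp between the diets. Of 7 negative acute phase genes, whose products fall in plasma during inflammation, 2 were lower with DDC than with CDE and 0 higher. Over all genes 0.742% were lower and 0.418% higher. The 2 genes were Alb and the corticosteroid carrier Serpina6 (-3.46 ± 0.51, adjusted p = 0.0269, limma), and the median of the 7 was -1.07. On CDE against UTR 7 of 7 were positive, with a median of 0.77 (0 called), and on DDC against UTR 1 of 7, with a median of -0.55 (0 called). Hepatocyte markers, a list that shares Alb and other genes with this one, leaned the same way, which the shared genes partly fix. For DDC minus CDE 0 of 13 hepatocyte markers were positive, with a median of -0.40, and for CDE minus UTR 11 of 13, with a median of 0.26. Their part in these values was not tested.

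**Figure D4:**
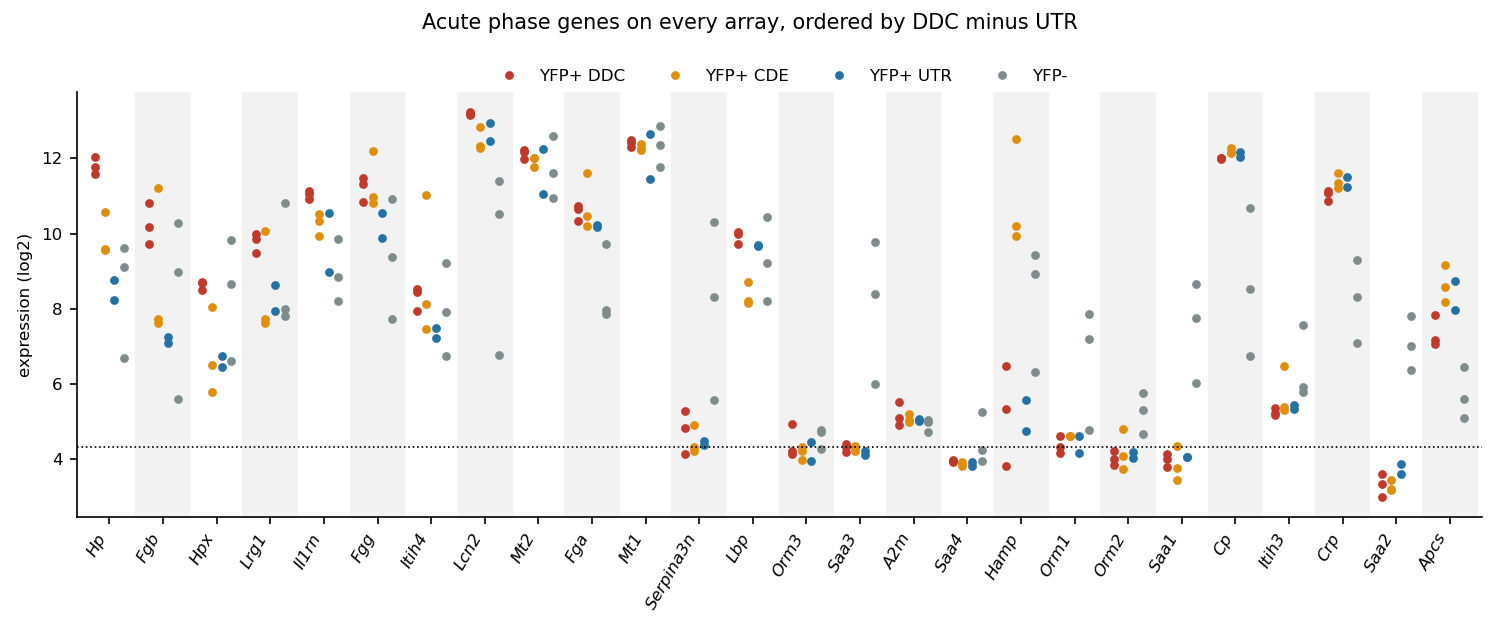
Expression (log2, y axis) of 26 acute phase genes (x axis, ordered by DDC minus UTR) on every array, coloured by group; the dotted line marks the average lower quartile of the arrays. Hp is at the left end with its DDC arrays at 11.59 to 12.03, and the Saa genes lie near the line on the YFP+ arrays while the YFP- arrays reach 9.77.

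The STAT3 target list held 23 measured genes with products in survival, growth and feedback. It gave 1 call on DDC against UTR, where 0.16% of all genes were called, and 0 on CDE against UTR, where 0% were. The call was Timp1, an inhibitor of metalloproteinases, at 8.42, 8.64 and 8.15 with DDC against 6.49 and 6.28 in UTR (2.02 ± 0.15, adjusted p = 0.0181, limma). DDC against CDE gave 3 calls, all higher with DDC, where 0.418% of all genes were called higher. They were the metalloreductase Steap4 (1.85 ± 0.24, adjusted p = 0.0184), Timp1 (1.77 ± 0.14, adjusted p = 0.00716) and the adhesion molecule Icam1 (0.92 ± 0.16, adjusted p = 0.0404). The median over the list was 0.07 for DDC against UTR, -0.03 for CDE against UTR and 0.29 for DDC against CDE, beside 0.01, 0.004 and 0.01 over all genes. The other 20 genes of the list passed in none of these comparisons.

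Upstream of STAT3 no listed ligand, receptor, kinase or inhibitor gene except Lifr passed among YFP+ groups. This covers 9 ligand genes, 6 receptor genes, 8 genes of JAKs, STATs and adaptors, and 9 feedback inhibitors. The kinase gene Jak2 had the largest difference of its list on either diet, at 8.14, 8.02 and 8.14 with DDC, 7.93, 8.14 and 7.98 with CDE, and 7.33 and 7.69 in UTR. Its differences were 0.59 ± 0.13 for DDC and 0.51 ± 0.13 for CDE against UTR (adjusted p = 0.156 and 0.623, limma). The ligand gene Clcf1, whose product signals through the receptor of ciliary neurotrophic factor, gp130 and Lifr, read 10.05, 10.39 and 10.29 with DDC against 10.02 and 9.38 in UTR (0.54 ± 0.20, adjusted p = 0.406).

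Neighbouring inputs that feed the same outputs were also examined. Of 18 measured genes of IL-1, TNF and NF-kB signalling 0 passed on either diet against UTR. Between the diets 1 passed, where 1.16% of all genes did. That gene was Tnf, at 9.95, 9.72 and 9.48 with DDC against 7.87, 8.42 and 8.68 with CDE (1.40 ± 0.25, adjusted p = 0.046, limma). Its DDC difference from UTR was 1.51 ± 0.28 (adjusted p = 0.104). Of 9 genes of the IL-22, IL-10 and IL-17 receptor list 0 passed among YFP+ groups. Il22ra1, the receptor of IL-22, another cytokine that activates STAT3, averaged 6.08 ± 0.12 with DDC and 6.01 ± 0.14 with CDE (SD, n = 3 each), against 5.73 and 7.18 on the UTR arrays. The 2 UTR arrays lay on either side of both diets, so no direction can be read.

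Untreated YFP+ cells against YFP- cells differed in 3 members. Lif was higher in YFP+ cells, and the receptor genes Lifr and Il6ra were lower. The outputs Socs3, Hp and Lbp did not pass. Of 10 members 1 was called higher and 2 lower, where 18.9% of all genes were called (4373 of 23185), 10.4% higher and 8.46% lower. With 10 members such counts lie near the background. The common spread of this fit makes SE and p too small for genes that vary more in YFP-.

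Lif read 6.97 and 7.28 in UTR against 5.64, 6.28 and 5.23 in YFP- replicates 1, 2 and 3 (1.41 ± 0.34, adjusted p = 0.0197, limma). The groups did not overlap, and the call was lost without UTR replicate 1 (0.0695) or 2 (0.14). Lifr read 8.26 and 8.92 in UTR against 11.74, 9.87 and 10.31 in YFP- (-2.05 ± 0.45, adjusted p = 0.0118), a call lost without UTR replicate 1 (0.106). Il6ra read 6.14 and 5.64 in UTR against 6.67, 8.78 and 9.78 in YFP- (-2.52 ± 0.73, adjusted p = 0.0409), and the call held in 1 of 11 omissions, that of YFP- replicate 1 (-3.39, adjusted p = 0.00031). In a fit of these 5 arrays alone none of the 3 passed (adjusted p = 0.105 to 0.235).

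Il6 split the YFP- arrays. It read 3.52 and 3.61 in UTR against 3.31, 8.20 and 8.04 in YFP- replicates 1, 2 and 3. On YFP- replicate 1 Il6 was dim, as on the YFP+ arrays, for a reason that was not tested. With all arrays the difference was -2.95 ± 1.19 (adjusted p = 0.124, limma), and without YFP- replicate 1 it was -4.56 (adjusted p = 1.4e-07). As UTR and YFP- replicate 1 are at the floor, the size of these differences is not set by the data.

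YFP- replicate 1 was also the extreme array for several receptors and outputs. Il6st read 10.82 and 10.76 in UTR against 12.41, 10.26 and 10.87 in YFP-, and Osmr 8.37 and 7.76 in UTR against 10.60, 7.14 and 8.14 in YFP-. Lbp read 9.67 and 9.69 in UTR against 10.44, 8.20 and 9.21 in YFP-. Hp went the other way, with 8.75 and 8.24 in UTR against 6.68, 9.62 and 9.12 in YFP-. Without that replicate the differences of Il6st, Osmr and Hp changed sign (0.23, 0.42 and -0.87 against -0.39, -0.56 and 0.02 with all arrays), and none passed. Endothelial markers averaged 11.70 on that replicate, against 10.01 and 10.43 on the other YFP- arrays, and their part in these values was not tested.

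Stat3 read 9.25 and 8.80 in UTR against 9.90, 9.86 and 9.15 in YFP- (-0.61 ± 0.25, adjusted p = 0.133, limma). Without YFP- replicate 3 the difference was -0.86 and passed (adjusted p = 0.0218). Socs3 read 6.41 and 7.68 in UTR against 7.33, 8.04 and 6.73 in YFP-, with overlap and a difference of -0.32 ± 0.45.

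The list counts of this comparison stand beside 10.4% of all genes called higher and 8.46% lower. Of 9 ligand genes 3 were higher in untreated YFP+ cells and 2 lower. Higher with Lif were Clcf1 (2.65 ± 0.57, adjusted p = 0.0104, limma) and cardiotrophin 1, Ctf1 (1.94 ± 0.20, adjusted p = 0.000259), both ligands of gp130 receptors, and lower were Ebi3, a chain of IL-27 and IL-35 (-3.45 ± 0.73), and Cntf, which is dim in UTR (-1.19 ± 0.29). Of 6 receptor genes 0 were higher and 4 lower: Il6ra, Lifr, Cntfr (-1.95 ± 0.41) and Il27ra (-1.43 ± 0.43). The kinases Jak1 and Jak2 were lower by -1.52 ± 0.26 and -1.85 ± 0.27, and with Stat5b made 3 of 8 lower and 0 higher in their list.

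Of 26 acute phase genes 3 were higher and 4 lower in untreated YFP+ cells, near the shares of 10.4% and 8.46% over all genes, with a median of -0.48. Ceruloplasmin, Cp, the copper carrier of plasma, was higher by 3.45 ± 0.85, and Saa1, Saa3 and Serpina3n, an antiprotease, were lower by -3.41 ± 0.62, -3.89 ± 0.82 and -3.63 ± 1.06 (adjusted p = 0.0198, 0.00456, 0.0101 and 0.042, limma). The UTR means of Saa1 and Saa3 (4.06 and 4.16) are dim, so the size of these differences is not set by the data. Of 9 feedback inhibitors 1 was higher, Socs2 (1.10 ± 0.22), and 2 lower, Ptpn6 (-1.98 ± 0.57) and Ptpn2 (-1.09 ± 0.19). The STAT3 target list had 3 of 23 higher and 6 lower, led by the angiogenic factor Vegfa (3.04 ± 0.45), the IL-4 receptor chain Il4ra (-2.17 ± 0.30), the kinase Pim1 (-2.12 ± 0.60) and the transcription factor Cebpd (-1.84 ± 0.37).

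Genes of the IL-1 and NF-kB list were lower in untreated YFP+ cells in 6 of 18 and higher in 0, beside 8.46% and 10.4% of all genes. The cytokines Il1a and Il1b were lower by -5.95 ± 0.48 and -4.94 ± 0.73 (adjusted p = 0.000102 and 0.00175, limma), the lipopolysaccharide coreceptor Ly96 by -2.91 ± 0.40 and Tlr2 by -1.74 ± 0.21. In the receptor list of IL-22, IL-10 and IL-17, Il10ra (-4.45 ± 0.60), which is dim in UTR at 3.95 on both arrays so that its size is not set, and Il17ra (-1.90 ± 0.24) were lower, and Il17rc (1.47 ± 0.45) and Il22ra1 (1.37 ± 0.39) were higher. Il22ra1 read 5.73 and 7.18 on the UTR arrays against 5.62, 4.81 and 4.83 in YFP-. UTR replicate 1 thus lay close to YFP- replicate 1, and the difference rests largely on UTR replicate 2. Markers of macrophages (8.25 to 11.48 in YFP-, 6.07 and 6.09 in UTR) and endothelium (10.01 to 11.70 in YFP-, 5.29 and 5.80 in UTR) moved with these lists, and their part was not tested.

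Across the 8 YFP+ arrays, which share diets in groups, the members were set against each other as a description. Hp ran with Stat3 (Pearson r = 0.84) and Osmr (0.82) and against Il6st (-0.77), while its correlation with Socs3 was 0.16 and with Lbp 0.30. Lbp ran against Lifr (-0.81). The genes most like Hp among 3186 with an SD of at least 0.3 were the inflammatory caspase Casp4 (0.993), the carboxypeptidase Cpe (0.983), the hyaluronan receptor Cd44 (0.979), the basement membrane protein Nid1 (0.971) and the chromatin factor Uhrf1 (0.968). Casp4 read 9.18, 9.42 and 9.31 with DDC, 8.50, 8.97 and 8.66 with CDE, and 8.32 and 8.06 in UTR, the same order of groups as Hp. That likeness follows from choosing the gene by correlation over the same 8 arrays.

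The genes most like Lbp were Shroom3 (0.975), which shapes epithelial cells, Nbeal2 (0.975), the stress protein Nupr1 (0.97), Defa34 (0.963) and the calcium binding protein S100b (0.96). Nupr1 read 7.94, 8.06 and 7.61 with DDC, 6.41, 6.36 and 6.67 with CDE, and 7.61 and 7.59 in UTR, low on CDE alone as Lbp was. The genes most like Socs3 were Snhg20 (0.931), the protease Ctse (0.91), the transcription factor Gata5 (0.906), the somatostatin receptor Sstr2 (0.897) and Lrrc26 (0.881). Ctse read 5.62 and 8.75 on UTR replicates 1 and 2, and Socs3 read 6.41 and 7.68 on the same arrays, both higher on UTR replicate 2. The patterns that Nupr1 shares with Lbp and Ctse with Socs3 likewise follow from the choice by correlation.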

How the data were processed

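Affymetrix MoGene 2.0 ST arrays gave 1 value per gene feature and array for 11 samples. The values are log2 expression as the authors deposited it; the base was inferred from the range (2.55 to 13.57), and no source here states the background correction, normalization or probe summary. Array medians ran from 5.63 to 5.76, no 2 arrays were identical, and no further normalization was applied. Of 25206 features 23185 had 1 symbol in the platform annotation, 0 several, and 2021 were not listed. All 23185 gene numbers matched RefSeq (GRCm38.p6).

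Groups come from the sample titles. limma 3.58.1 in R 4.3.3 (lmFit, eBayes, two-sided, Benjamini-Hochberg over all genes, threshold 0.05) was fitted on 8 YFP+ arrays (5 residual degrees of freedom) or on 11 (7), and tested on simulated data. Members, the 16 gene lists and the 8-array fit were chosen with earlier results of these data known. Named genes are the members, up to 4 called genes of each list per comparison by size (or the 2 largest where none passed), and the 5 genes most correlated with Hp, Socs3 and Lbp, leaving out predicted genes and small RNAs. Of 186 listed genes 174 were measured; the others were not analysed here. The number of arrays limits the precision, p-values measure the spread between these arrays, which may be technical, and no scan batch was given. Alternatives were the other set of arrays, quantile normalization, dim features left out, array weights, an intensity trend, a replicate block and each array left out.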

Additional observations from a re-analysis of the deposited data

Results flagged for a closer look

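The effects of the DDC and CDE diets, each against the same untreated YFP+ cells, differed for 3 of the 10 genes by the direct test of DDC minus CDE (limma, 8 arrays). Hp differed by 1.88 (higher with DDC in 3 of 3 arrays, adjusted p = 0.028), Lbp by 1.56 (higher in 3 of 3, adjusted p = 0.0119) and Lifr by -0.90 (lower in 3 of 3, adjusted p = 0.0403). No group had enough arrays to test whether a single array lay far from the others. Arrays described elsewhere as high, extreme or apart were read from their values without such a test.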

How the results depend on the processing

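The values below concern the counts of called genes and the 10 members in the 4 comparisons. The fit on all 11 arrays called 0 genes for DDC minus UTR, where 8 arrays called 37, and 1 for DDC minus CDE in place of 269, since it adds the spread of YFP-. In it Hp for DDC minus UTR stayed at 3.30 (adjusted p = 0.556), and Lifr (-0.90), Hp (1.88) and Lbp (1.56) for DDC minus CDE lost their calls (0.65, 0.487 and 0.376). For UTR minus YFP- the 5 arrays alone called 931 genes in place of 4373, and Lif (1.41), Il6ra (-2.52) and Lifr (-2.05) lost their calls. Quantile normalization ended the call of Lifr between the diets (-0.83, adjusted p = 0.0636) and turned the near-zero CDE difference of Il6st (-0.001). It made 272 calls for DDC minus CDE but split them 129 higher and 143 lower, against 97 and 172, and 2791 and 1719 for UTR minus YFP-, against 2412 and 1961. Array weights and the intensity trend each called 1 gene for CDE minus UTR in place of 0. With array weights Il6 for UTR minus YFP- passed (-3.24, adjusted p = 0.0197) and Hp turned to -0.11. Leaving out dim features changed no call of the 9 members tested in it (Il6 was left out).

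Same-numbered arrays of the YFP+ groups had deviations from their group means correlated at -0.07 to 0.13, and other pairs at -0.15 to 0.15. The deviations of the 2 UTR arrays mirror each other, so this check cannot decide whether same-numbered samples share more than a number. With the replicate block 0 genes were called for DDC minus UTR and 61 for DDC minus CDE. Under the block Hp was at 3.39 (adjusted p = 0.1) and 1.88 (0.0648), Lifr at -0.90 (0.0821), Il6ra for UTR minus YFP- at -2.26 (0.0855), and Lif for CDE minus UTR turned to 0.002.

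Leaving out 1 array at a time gave 0 to 46 genes for CDE minus UTR, 0 to 103 for DDC minus UTR, 16 to 211 for DDC minus CDE and 2306 to 5817 for UTR minus YFP-. The highest counts for CDE minus UTR and DDC minus UTR came without UTR replicate 1, and the lowest for DDC minus CDE without CDE replicate 3. For CDE minus UTR the ranges were -0.069 to 0.061 for Il6, -0.23 to 0.069 for Lif, -0.12 to 0.38 for Il6ra, -0.17 to 0.28 for Stat3 and -1.12 to 0.15 for Socs3. For DDC minus UTR they were -0.087 to 0.006 for Il6, -0.49 to 0.005 for Il6ra, -0.84 to -0.18 for Lifr, -0.57 to 0.70 for Socs3 and 3.04 to 3.56 for Hp. For DDC minus CDE they were -0.10 to 0.028 for Il6, -0.94 to -0.88 for Lifr, 1.71 to 2.22 for Hp and 1.46 to 1.74 for Lbp. For UTR minus YFP- they were -4.56 to -2.11 for Il6, 1.16 to 1.69 for Lif, -3.39 to -1.84 for Il6ra, -0.85 to 0.23 for Il6st, -1.31 to 0.42 for Osmr, -2.43 to -1.50 for Lifr, -0.86 to -0.39 for Stat3, -0.96 to 0.31 for Socs3, -0.87 to 0.60 for Hp and -0.14 to 0.97 for Lbp. Where an omission left 1 UTR array, that array was assumed to vary like the other groups. Array number and the dim floor, under which Il6 lies in YFP+ cells, limit all of these.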

Other observations

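CDE replicate 2 had higher levels of several plasma protein transcripts than the other CDE arrays, named here after their values were seen. Fgb read 11.22 there against 7.72 and 7.62 on CDE replicates 1 and 3, Itih4 11.04 against 7.46 and 8.13, Lrg1 10.06 against 7.62 and 7.72, and Hpx 8.04 against 6.49 and 5.79. Hp (10.58 against 9.56 and 9.60), Osmr (9.12 against 8.49 and 8.29) and Stat3 (9.38 against 8.81 and 9.05) were highest on the same array, whereas Lbp (8.20 against 8.15 and 8.72) was not. The same array had the highest hepatocyte marker mean of the YFP+ arrays (7.89 against 7.05 and 7.12) and the highest neutrophil marker mean (5.31 against 4.57 and 4.94). The neutrophil mean rested mostly on S100a8 (7.63 against 4.43 and 5.98) and S100a9 (8.09 against 5.15 and 6.67). Mpo and Retnlg were also above both other CDE arrays, by less, while Ly6g, Elane, Cxcr2, Ngp and Camp were not. The part of either cell type in these values was not tested. On the DDC arrays Fgb (9.73 to 10.81), Lrg1 (9.48 to 9.98) and Hpx (8.50 to 8.71) were high beside hepatocyte marker means of 6.76 to 6.83.

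Oncostatin M, the ligand of the receptor encoded by Osmr, was at 4.86 to 5.21 on the DDC arrays, 4.89 to 5.12 on the CDE arrays and 5.13 and 4.88 on the UTR arrays. On YFP- replicate 2, the array with the highest lymphocyte and neutrophil marker means (10.22 and 9.09), Osm read 8.05, against 4.61 and 4.98 on YFP- replicates 1 and 3.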
